A study of Mus musculus with 4 samples.

Results

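The subunits of the mitochondrial respiratory chain and of ATP synthase that are encoded in the nucleus were examined in mouse hair follicle stem cells. Members were the rows of the deposited gene table whose symbol begins with Nduf and a subunit letter and number (complex I), is Sdha, Sdhb, Sdhc or Sdhd (complex II), or begins with Uqcr (complex III), Cox4 to Cox8 (complex IV) or Atp5 (complex V), without the 13 such rows that carry -ps in the symbol. The rule used names only, and it found 89 of 55401 rows, 40 for complex I, 4 for II, 8 for III, 19 for IV and 18 for V. It does not take in the carrier Ndufab1, cytochrome c1 (Cyc1) or cytochrome c (Cycs). Among the -ps rows left out, Ndufb1-ps (176 to 343 counts per library) is annotated as a non-coding RNA and Cox5b-ps (48 to 71) as protein coding. Of the 89 rows, 80 had enough counts to be tested (38, 4, 8, 13 and 17 by complex), 4 had counts below that limit, and 5 had 0 counts in every library.

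RNA-seq libraries of anagen follicle stem cells, the growth phase of the hair cycle, came from C57BL/6 mice that had received a normal diet (ND, 2 libraries) or a high-fat diet for 4 months (HFD, 2 libraries). The labels name no mutation or transgene in either group and give no age or method of cell isolation. They do not say that the 2 libraries of a diet are separate animals, so p-values speak only of the spread among libraries, which could be technical. Total counts were 9940848 and 9366856 for ND and 8734246 and 8590570 for HFD, and keratinocyte and stem cell genes such as Krt5, Krt14, Krt15, Sox9, Lhx2, Cd34 and Lgr5 were detected in all 4 libraries.

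Complexes I, III and IV pass electrons from NADH and succinate (through complex II) to oxygen and pump protons across the inner mitochondrial membrane, and ATP synthase, complex V, uses the resulting gradient to make ATP. Complex II is built from nuclear genes alone, whereas the other complexes combine nuclear subunits with a few hydrophobic core subunits translated inside the organelle. Hair follicle stem cells are known for a metabolism that leans on glycolysis at rest, with a change in mitochondrial activity when they are called into growth.

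With the high-fat diet, 1 of the 80 tested members, Ndufa4l2, was higher and 0 were lower (edgeR quasi-likelihood test, Benjamini-Hochberg adjusted p under 0.05 over 14479 genes). Among all genes tested 1.12% were called higher and 0.228% lower, so 1 call among 80 members is near the background. At an unadjusted p under 0.05 there were 1 higher and 3 lower members (Ndufb6, Atp5k and Ndufa11), against 7.24% and 6.03% of all genes. DESeq2 also called Ndufa4l2 higher and 0 members lower, and limma on log2(FPKM + 1) called 0 in both directions. In bulk samples such as these, fewer cells of a type and less RNA per cell cannot be told apart.

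No other member passed the test, and their log2 fold changes ran from -0.95 (Cox6b2) to 0.64 (Atp5g2). The median log2 fold change (HFD over ND) was -0.05 over the 80 members and 0.0018 over all genes tested, and 47 members were below 0 (58.8%, against 49.9% of all genes). With scaling to total counts 62 members were below 0 (77.5%, against 59.3% of all genes), and without the second HFD library 40 were (50%, against 50.5%). The 95% interval of the fold change stayed within 1.5-fold in either direction for 43 members (53.8%, against 25.1% of all genes) and within 2-fold for 69. The width of these intervals depends on counts, and the median half-width was 0.42 on the log2 scale for members and 0.58 for all genes. For 51 members the ND libraries differed from each other by more than the diet means differed, as they did for 55.3% of all genes.

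**Figure D1:**
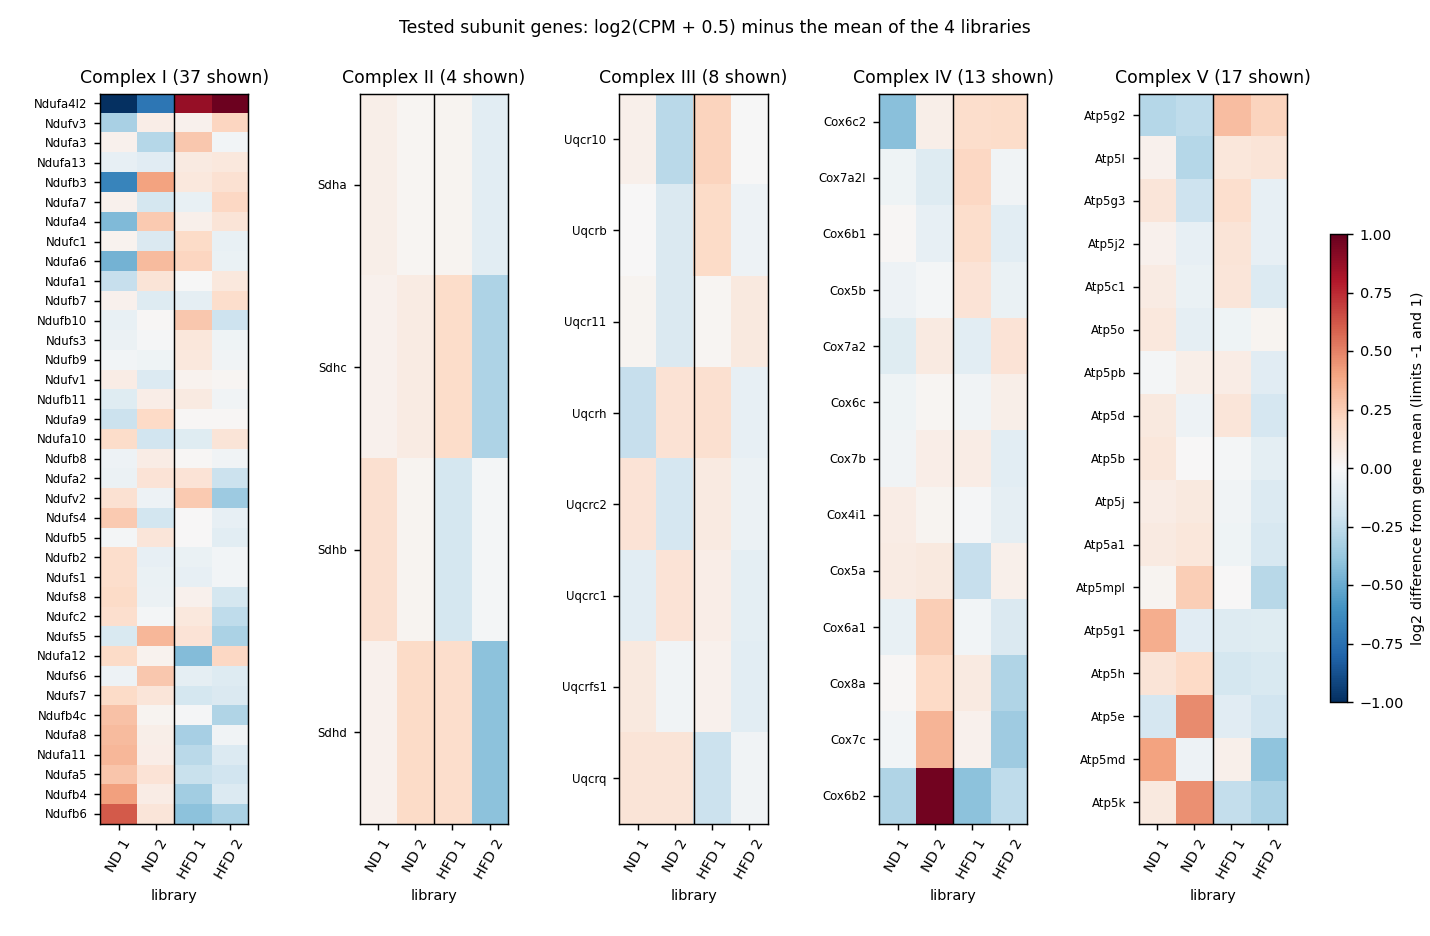
Heat map of the tested members by complex, with 1 of the 80 not shown; each cell is log2(CPM + 0.5) in 1 library minus the mean of the 4 libraries for that gene, red above and blue below the mean, with genes ordered by log2 fold change. Ndufa4l2 at the top of complex I is blue in both ND and red in both HFD libraries, and Cox6b2 and Ndufb3 differ mainly between the ND libraries.

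The summed level of all members was 4985 and 4942 CPM (counts scaled to library size after TMM correction) in the ND libraries and 4898 and 4548 CPM in the HFD libraries. The HFD sums were both lower, and the HFD mean was 0.952 times the ND mean. By complex the ratio of means was 0.978 for complex I, 0.920 for II, 0.998 for III, 0.981 for IV and 0.914 for V. With 2 libraries against 2 an exact permutation test of such a sum cannot go below 0.333 (two-sided), so these sums carry no test.

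Ndufa4l2 encodes a close relative of Ndufa4, and it is known as a target of hypoxia-inducible factor that lowers oxygen consumption when it is abundant. Its symbol places it in complex I, although the Ndufa4 protein is now counted with complex IV. The gene lies on chromosome 10, positions 127514967 to 127517154, plus strand. Raw counts were 55 and 69 in the ND libraries and 192 and 207 in the HFD libraries. As FPKM (fragments scaled to exonic size and to the total of the library) these were 5.05 and 6.73 against 20.08 and 22.01. Both HFD libraries stood well above both ND libraries.

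Ndufa4l2 averaged 6.28 ± 1.33 CPM with ND and rose to 23.8 ± 1.35 CPM with HFD (SD, n = 2 each), a 3.79-fold difference with a log2 fold change of 1.92 ± 0.29 (SE) and an edgeR adjusted p of 0.0119. Over all genes tested it ranked 230 by log2 fold change and 40 by p. The call depended on which library was left out. It was lost without either ND library or without the second HFD library, and kept without the first HFD library. Each of these 4 fits left 1 library in 1 diet. The log2 fold change lay between 1.72 and 2.15 in those 4 fits. On log2(FPKM + 1), limma gave 1.69 with an adjusted p of 0.0819.

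Ndufa4 itself, the paralog found in most tissues, had 133 and 204 counts in the ND libraries and 154 and 162 in the HFD libraries. The HFD values lay between the ND values, and its log2 fold change was 0.14 ± 0.29 SE (edgeR adjusted p = 0.90), turning to -0.18 without the first ND library. Ndufa4l2 made up 34.3% and 29.9% of the summed FPKM of the pair with ND and 61.1% and 61.7% with HFD. The HFD mean share was thus 29.3 percentage points above the ND mean share. Ndufa4l2 had the higher FPKM of the pair in both HFD libraries only. These are shares of the deposited FPKM, and the handling of multiply placed reads is not given.

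Ndufa4l2 is also a known marker of pericytes, the mural cells of small vessels. From 8 pericyte genes chosen after these values were seen, Higd1b was at 0 in all 4 libraries, and Rgs5 had 11 and 13 counts with ND and 19 and 17 with HFD. Pdgfrb had between 4 and 11 counts, and Notch3, which keratinocytes also express, had 201 and 290 with ND and 431 and 422 with HFD. The 8 genes summed to 511 and 549 CPM with ND and 567 and 511 CPM with HFD, most of it Cspg4. The other 7 summed to 24.96 and 34.86 CPM with ND and 59.3 and 57.5 CPM with HFD, most of it Notch3. Of 5 pericyte genes tested 4 lay above 0, with a median log2 fold change of 0.82, and 0 were called (1 at an unadjusted p under 0.05). For 3 of the 5 both HFD libraries were above both ND libraries, as they were for 22.7% of all genes. Markers of endothelium summed to 9.52 and 14.5 CPM with ND and 17.5 and 22.7 CPM with HFD (4 of 4 above 0 in log2 fold change, 0 called), and those of dermal fibroblasts to 38.4 and 47.9 against 62.8 and 50.8 CPM (5 of 5 above 0, 0 called). Suprabasal epidermis genes (Krt1, Krt10 and Ivl) summed to 858 and 2305 CPM with ND and 3278 and 4149 CPM with HFD (3 of 3 above 0, 1 called higher). Immune markers summed to 3.59 and 10.7 against 8.21 and 11 CPM (3 of 3 tested above 0, 0 called). Other lists went the other way. Sebocyte markers summed to 332 and 277 CPM with ND and 255 and 248 CPM with HFD (3 of 4 below 0, 0 called). Melanocyte markers summed to 26.4 and 12.7 against 21.2 and 12.7 CPM (3 of 3 tested below 0, 0 called). The 11 follicle stem cell markers went both ways, with 6 above and 5 below 0 and 1 called higher. They summed to 14745.6 and 16815.1 CPM with ND and 20864.8 and 19286.7 CPM with HFD. For 5 of the 11 both HFD libraries were above both ND libraries, and for 5 both were below (22.7% and 21.9% of all genes). The part of these cell types in the rise of Ndufa4l2 was not tested.

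**Figure D2:**
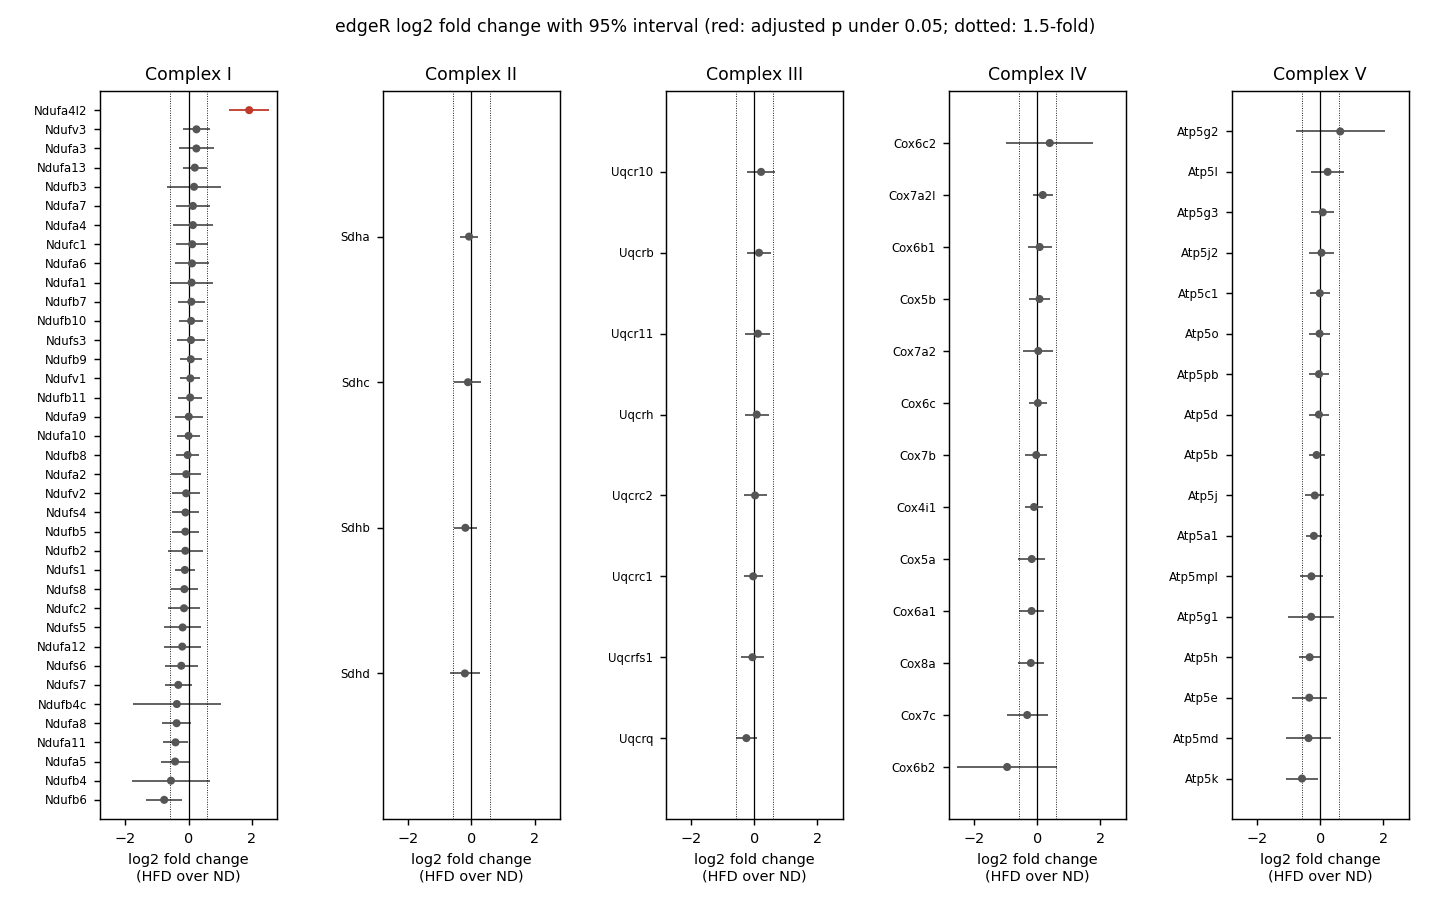
Log2 fold change (HFD over ND, edgeR) of the tested members with their 95% intervals, by complex, with 1 of the 80 not shown; dotted lines mark 1.5-fold and red marks an adjusted p under 0.05. Only Ndufa4l2 (1.92) is red, and the widest intervals belong to genes with few counts such as Cox6b2, Atp5g2, Ndufb4c and Cox6c2.

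Whether the libraries of the diets overlapped was read from CPM. Over the 80 members the HFD libraries were both above both ND libraries for 6 (7.5%, against 22.7% of all genes) and both below for 19 (23.8%, against 21.9% of all genes). In either direction that made 25 members (31.2%), against 44.6% of all genes. The lower ones were thus about as frequent as among all genes. Those 19 lie in complex I (8), II (1), III (1), IV (2) and V (7), and 0 of the 19 passed the edgeR test.

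Complex I, NADH dehydrogenase, has 7 nuclear core subunits that carry the flavin, the iron-sulfur clusters and part of the quinone site. None of the 7 was called, and their log2 fold changes lay between -0.32 (Ndufs7) and 0.08 (Ndufs3), with 5 below 0 (7 with scaling to total counts, 2 without the first ND library). Ndufv1, which binds NADH and the flavin, had 88.8 and 76.9 CPM with ND and 86.7 and 85.7 CPM with HFD. The HFD values lay between the ND values, with a log2 fold change of 0.06 ± 0.15 (SE) and an edgeR adjusted p of 0.922.

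Ndufs1, an iron-sulfur subunit of the electron input module, had 92.4 and 78.1 CPM with ND and 77.2 and 80.1 CPM with HFD. The diets overlapped (log2 fold change -0.12 ± 0.15 SE), and without the first ND library the value was 0.01.

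The 28 accessory subunits of complex I that sit around this core, Ndufa4 and its relative left aside, divided evenly, with 14 above and 14 below 0 and a median log2 fold change of -0.01. Ndufb6, a membrane arm subunit on chromosome 4 (positions 40270591 to 40279421, minus strand), had 30.3 and 21.4 CPM with ND and 14.6 and 15.7 CPM with HFD. Both HFD libraries were below both ND libraries, which themselves differed by 0.50 on the log2 scale. Its log2 fold change was -0.77 ± 0.26 (SE), with a 95% interval of -1.33 to -0.21 and an edgeR adjusted p of 0.213, so it did not pass the test.

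Ndufa11, a membrane arm subunit that contacts complex III in supercomplexes, had 56.9 and 47.3 CPM with ND and 37.4 and 41.0 CPM with HFD (log2 fold change -0.41 ± 0.18 SE, edgeR adjusted p = 0.344). Ndufa5, in the arm that reaches into the matrix, had 36.9 and 33.4 CPM with ND and 25.9 and 26.4 CPM with HFD (log2 fold change -0.42 ± 0.20 SE, edgeR adjusted p = 0.387). In both genes the diets did not overlap and the test was not passed. Ndufb10 was the most abundant complex I member per length, at 62.2 and 65.1 FPKM with ND and 73.4 and 53.3 FPKM with HFD, and its HFD libraries lay on either side of the ND libraries.

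Ndufb3 showed the widest gap between ND libraries, on the log2 scale, among complex I members named here. It had 6.51 and 14.1 CPM with ND and 11.4 and 11.8 CPM with HFD, so both HFD values fell between the ND values. Reads of some members may be shared with near-identical copies, and the handling of such reads is not given in the sources used here. Ndufa12, for example, had 243 and 201 counts with ND and 127 and 199 with HFD beside 150, 120, 69 and 74 counts for its processed pseudogene Ndufa12-ps, so its own value is uncertain. Of the 89 members 4 are annotated as processed pseudogenes themselves (Cox6c2, Ndufb4c, Ndufa11b and Ndufs6b), and 2 of these, Cox6c2 and Ndufb4c, were tested, without a call.

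Complex II, succinate dehydrogenase, also works in the citrate cycle. All 4 of its genes had log2 fold changes below 0, between -0.21 (Sdhd) and -0.08 (Sdha), with a median of -0.15, and none was called. Without the second HFD library the median was 0.02, so its sign rests on that library. Sdha, the flavin subunit and the most abundant per length at a mean of 33.2 FPKM, had 143 and 139 CPM with ND and 140 and 128 CPM with HFD, which overlap. Sdhb, the iron-sulfur subunit, had 54.4 and 49.6 CPM with ND and 43.1 and 48.1 CPM with HFD, both lower (log2 fold change -0.19 ± 0.17 SE, edgeR adjusted p = 0.694). Sdhd, a membrane anchor, had 395 and 407 counts with ND and 354 and 234 counts with HFD, where only the second HFD library was low.

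Complex III, the cytochrome bc1 complex, had 8 tested members and none called. Its median log2 fold change was 0.05, the only one of the 5 complexes above 0, but it was -0.02 with scaling to equal TPM sums, -0.04 with scaling to total counts and -0.03 in limma. The core protein Uqcrc1 had 155 and 183 CPM with ND and 174 and 155 CPM with HFD. Uqcrc2, its partner, had 70.0 and 56.6 CPM with ND and 67.8 and 61.0 CPM with HFD. In both core proteins the HFD values lay within or at the edge of the ND range.

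The Rieske iron-sulfur protein Uqcrfs1 had 51.1 and 46.7 CPM with ND and 49.4 and 44.4 CPM with HFD (log2 fold change -0.06 ± 0.17 SE). Among the small subunits Uqcr10 had the highest log2 fold change at 0.21 ± 0.21 (SE), from 34.1 and 27.2 to 38.4 and 32.8 CPM. Uqcrq, which contacts cytochrome b, had the lowest at -0.25 ± 0.15 (SE), from 74.9 and 74.7 to 58.8 and 66.8 CPM (edgeR adjusted p = 0.528). Only Uqcrq was free of overlap in this complex. Uqcr11 was the most abundant per length, with a mean of 61.2 FPKM.

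Complex IV, cytochrome c oxidase, has nuclear subunits that surround the mitochondrially made core, and several exist as paralogs used in different tissues. The 10 tested subunits of most tissues had a median log2 fold change of -0.07, with 6 below 0 and none called. Cox4i1, the most abundant of them at a mean of 85.4 FPKM, had 140 and 135 CPM with ND and 131 and 125 CPM with HFD. The HFD libraries were both lower by a small margin, with a log2 fold change of -0.10 ± 0.13 (SE) and an edgeR adjusted p of 0.801.

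Cox5a, which binds next to Cox4, had 37.9 and 38.4 CPM with ND and 30.5 and 37.2 CPM with HFD (log2 fold change -0.17 ± 0.19 SE). Cox5b, the zinc-binding subunit, had 62.2 and 63.6 CPM with ND and 70.8 and 61.6 CPM with HFD (log2 fold change 0.07 ± 0.16 SE). Neither difference passed the test, and for Cox5b the diets overlapped. Cox6a1 had 45.6 and 57.0 CPM with ND against 47.1 and 43.5 with HFD, and Cox8a 47.8 and 54.3 against 50.5 and 38.3, with overlap in both.

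Of the 7 paralogs of complex IV that are known from muscle, testis or lung, 6 were at or near 0, whichever diet was given. Cox4i2 (lung), Cox7b2 and Cox8c (testis) had 0 counts in all 4 libraries. Over the 4 libraries together a count of 0 allows Cox4i2 up to 0.0616% of the counts of its family, Cox7b2 up to 0.130% and Cox8c up to 0.171%, for counting error only. Among the heart and muscle forms, Cox6a2 had 4 counts in the first ND library and 0 in the others, Cox8b had 1 count in the same library, and Cox7a1 had 11 and 2 counts with ND and 0 and 6 with HFD. Markers of striated muscle summed to between 2.5 and 3.98 CPM in the 4 libraries. Cox6b2, a testis form, was the only one of the 7 to be tested. It had 19 and 49 counts with ND and 14 and 16 with HFD, so the second ND library stood apart (log2 fold change -0.95 ± 0.72 SE, edgeR adjusted p = 0.637). The log2 fold change was -0.047 without that library and -1.51 without the first ND library.

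The Cox7a and Cox8 families were taken as examples of a paralog of most tissues beside a restricted one. For them 250 bases before the RefSeq start of each gene are printed (build GRCm38.p6, 5′ to 3′ on the strand of the gene, CpG pairs in capitals). In the deposited table Cox7a1 starts at 30184144 and Cox7a2 at 79759878, so the last printed bases lie inside these genes as annotated there. Cox7a2, found in most tissues and at a mean of 27.7 FPKM here, is read from chr9:79759854-79760103 on the minus strand and has 14 CpG pairs in these bases. Cox7a1, the muscle form, is read from chr7:30183921-30184170 on the plus strand and has 4. Cox8a, at a mean of 77.0 FPKM, is read from chr19:7217617-7217866 on the minus strand and has 11. Cox8b, the muscle form, is read from chr7:140900447-140900696 on the minus strand and has 1.
Cox7a2: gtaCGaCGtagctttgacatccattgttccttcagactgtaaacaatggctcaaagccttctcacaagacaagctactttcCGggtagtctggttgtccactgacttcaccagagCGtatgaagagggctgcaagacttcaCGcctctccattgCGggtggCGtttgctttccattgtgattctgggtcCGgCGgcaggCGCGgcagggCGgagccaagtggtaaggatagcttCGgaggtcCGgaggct
Cox7a1: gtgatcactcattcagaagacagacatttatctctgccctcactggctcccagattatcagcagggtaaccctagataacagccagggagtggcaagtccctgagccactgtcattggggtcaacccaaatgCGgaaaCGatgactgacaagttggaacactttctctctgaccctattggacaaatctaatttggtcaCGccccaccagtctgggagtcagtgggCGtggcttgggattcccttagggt
Cox8a: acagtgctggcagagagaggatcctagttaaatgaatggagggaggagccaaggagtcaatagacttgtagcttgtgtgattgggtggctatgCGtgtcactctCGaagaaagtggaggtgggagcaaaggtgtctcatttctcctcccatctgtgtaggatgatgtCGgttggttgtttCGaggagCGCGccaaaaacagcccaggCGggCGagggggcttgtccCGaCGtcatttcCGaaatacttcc
Cox8b: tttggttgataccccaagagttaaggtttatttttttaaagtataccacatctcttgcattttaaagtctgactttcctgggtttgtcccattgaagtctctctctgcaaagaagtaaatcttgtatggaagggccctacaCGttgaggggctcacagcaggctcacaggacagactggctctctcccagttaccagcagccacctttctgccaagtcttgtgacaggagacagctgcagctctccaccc
In the full RefSeq windows of 250 bases before and 50 after the start, the median number of CpG pairs was 19 over the 73 promoters of 68 members that could be matched by name, 20 over the promoters of all genes tested and 7 over all 32851 promoters. The windows of Cox7a1 and Cox8b hold 7 and 2, and those of Cox7a2 and Cox8a hold 20 and 19. Cox6b1 (17) and the testis form Cox6b2 (10) differed in the same direction. Cox7b (5) and its testis form Cox7b2 (10) differed in the opposite direction. These counts describe sequence and were not related to the diets.

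Nuclear respiratory factor 1 is a transcription factor known to act on many genes of the chain, and the palindrome CGCATGCG, the centre of its motif, was searched in the same windows. It was present in 9 of the 73 member promoters (12.3%), in 3.76% of the promoters of genes tested and in 1.87% of all promoters. The 9 matches are shown with up to 11 bases on either side, on the strand of the gene and with the palindrome in capitals, because they span complexes I, III, IV and V. They lie at chr2:36049329-36049358 (minus strand, Ndufa8), chr17:56717692-56717721 (plus strand, Ndufa11), chr9:108936668-108936697 (plus strand, Uqcrc1), chr10:80406808-80406837 (minus strand, Uqcr11), chr5:115349101-115349130 (minus strand, Cox6a1), chr5:108434430-108434459 (minus strand, Atp5k), chr15:102671070-102671099 (minus strand, Atp5g2), chr16:84835105-84835134 (minus strand, Atp5j) and chr9:44920965-44920992 (minus strand, Atp5l).
Ndufa8: gtcgctggagaCGCATGCGcagatggtacc
Ndufa11: cctgcactgcgCGCATGCGcgcacgccttg
Uqcrc1: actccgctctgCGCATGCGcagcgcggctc
Uqcr11: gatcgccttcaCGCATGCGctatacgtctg
Cox6a1: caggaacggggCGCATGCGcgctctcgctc
Atp5k: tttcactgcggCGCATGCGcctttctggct
Atp5g2: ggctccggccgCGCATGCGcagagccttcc
Atp5j: aggccagaataCGCATGCGtacagtgcagt
Atp5l: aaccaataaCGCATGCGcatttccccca
Log2 fold changes of the 9 ran from -0.57 (Atp5k) to 0.64 (Atp5g2), and none passed the test. Motif AAGATGGC of the factor YY1, in either strand, was in 13.7% of member promoters, 4.34% of those of genes tested and 2.75% of all. Motif CCGGAAGT of the ETS factors was in 6.85%, 7.89% and 3.89%, and TATAAA in 12.3%, 7.26% and 13.6%. A match of letters is a description and does not show that a factor binds there.

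In families with more than 1 expressed paralog, Ndufa4 and Ndufa4l2 had the largest difference in mean share between the diets, 29.3 percentage points, against at most 2.48 (Cox7a2l) in the Cox6b, Cox7a and c-ring families. The difference for Cox7a2l was 6.53 points without the second HFD library and -1.57 without the first, and that for Cox6b2 was -4.48 without the first ND library. Cox7a2l, a relative of Cox7a2, held 68.5% and 65.3% of the Cox7a FPKM with ND and 73.4% and 65.3% with HFD. Its level was 88.5 and 83.0 CPM with ND and 105 and 88.7 CPM with HFD (log2 fold change 0.18 ± 0.15 SE). Cox6b2 held 2.42% and 6.80% of the Cox6b FPKM with ND and 1.95% and 2.70% with HFD.

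The c-ring of ATP synthase, the rotor that protons turn, is made of 1 protein encoded by 3 genes. Atp5g3 held 90.9% in each ND library and 91.4% and 90.1% in the HFD libraries. Atp5g2 held 2.77% and 3.55% with ND and 4.38% and 4.81% with HFD, and Atp5g1 6.30% and 5.58% against 4.27% and 5.05%. These shares rest on 20 to 28 counts per library for Atp5g2 and 80 to 140 for Atp5g1, and neither gene passed the test (log2 fold change 0.64 ± 0.65 and -0.28 ± 0.33 SE).

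**Figure D3:**
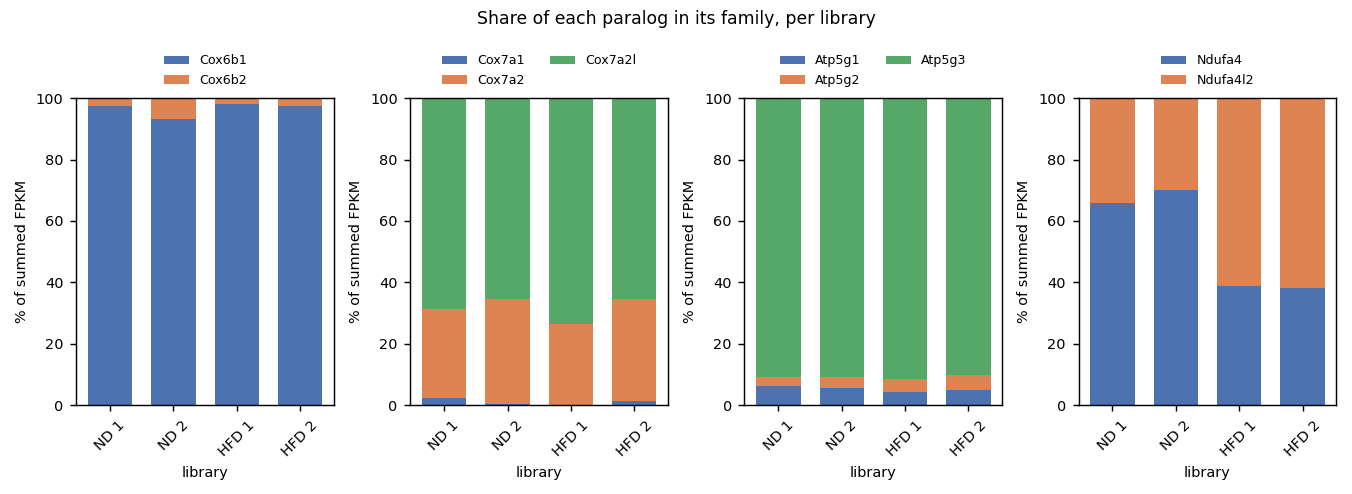
Share of each paralog in the summed FPKM of its family, 1 bar per library, for the families with more than 1 expressed member. Ndufa4l2 goes from 34.3% and 29.9% in the ND libraries to 61.1% and 61.7% in the HFD libraries, while Atp5g3 stays near 91% and Cox7a2l between 65.3% and 73.4%.

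Complex V, ATP synthase, had 13 of 17 tested members below 0 and a median log2 fold change of -0.11, and 7 members had both HFD libraries below both ND libraries while 2 had both above. Over all genes 49.9% were below 0, 21.9% had both HFD libraries below and 22.7% had both above. None of the 17 was called. All 5 subunits of the F1 head and central stalk (Atp5a1, Atp5b, Atp5c1, Atp5d and Atp5e) were below 0, between -0.34 and -0.01, and so were all 4 of the peripheral stalk (Atp5pb, Atp5h, Atp5j and Atp5o), between -0.33 and -0.02. Of these 9, 6 were below 0 without the first ND library or without the second HFD library, and their direction was not tested as a group.

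Atp5a1, the alpha subunit, was the most abundant of all members, with a mean of 185 FPKM. It had 614 and 626 CPM with ND and 562 and 518 CPM with HFD, lower in both HFD libraries (log2 fold change -0.20 ± 0.11 SE, 95% interval -0.45 to 0.05, edgeR adjusted p = 0.497). Atp5b, the catalytic beta subunit, had 517 and 478 CPM with ND and 473 and 447 CPM with HFD (log2 fold change -0.11 ± 0.12 SE). For Atp5b the first HFD library was only just below the second ND library. The 95% intervals put a fall of Atp5a1 or Atp5b greater than 1.5-fold outside their range.

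Atp5h, subunit d of the peripheral stalk, had 63.5 and 66.8 CPM with ND and 51.4 and 52.1 CPM with HFD (log2 fold change -0.33 ± 0.16 SE, edgeR adjusted p = 0.387). The libraries of each diet were close to each other and the diets did not overlap. Atp5k, subunit e of the membrane part that helps ATP synthase form dimers, had 25.4 and 32.9 CPM with ND and 20.1 and 19.0 CPM with HFD. Its log2 fold change was -0.57 ± 0.23 (SE), the lowest of complex V, with an edgeR adjusted p of 0.302. Both HFD values were below both ND values, and the test was not passed.

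**Figure D4:**
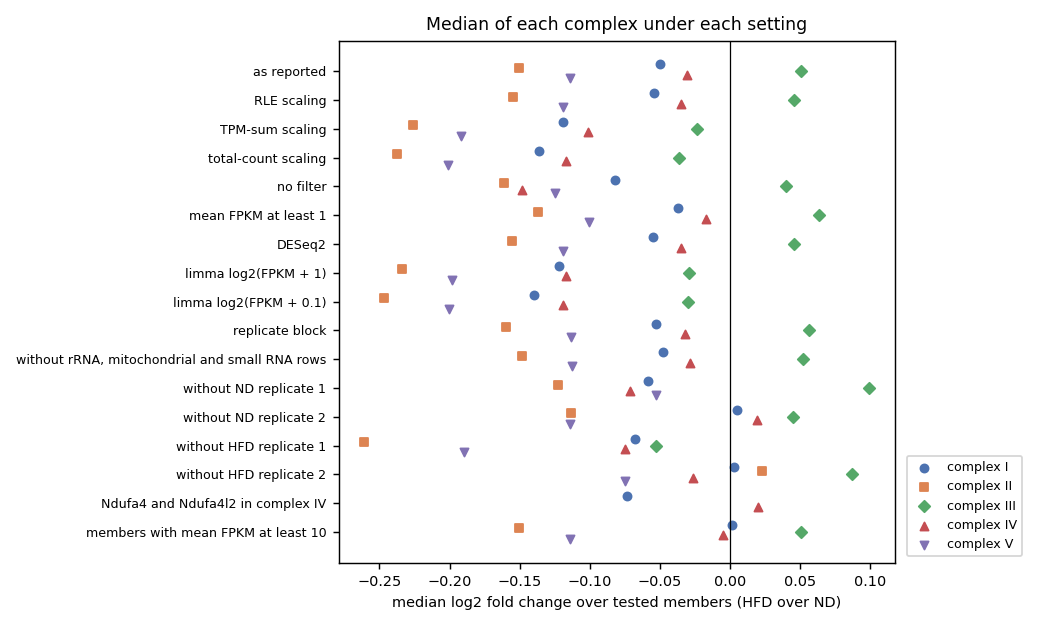
Median log2 fold change over the tested members of each complex under the fit used here and under each alternative (other scalings, filters, tools, the replicate block, leaving out a library, and other membership). Medians lie between -0.26 and 0.10, complex V stays below 0 under every setting shown, and the median of complex III turns negative with TPM-sum scaling, total-count scaling, limma, or without the first HFD library.

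The mitochondrially encoded subunits of the same complexes were read beside the nuclear-encoded members. Of 12 tested mitochondrial protein genes 3 were called higher (mt-Cytb, mt-Nd4 and mt-Nd5) and all 12 had a log2 fold change above 0, with a median of 0.54, but 0 were called with TPM-sum scaling, in limma, or without either ND library or the second HFD library. The ratio of the summed FPKM of the mitochondrial subunits to that of the nuclear members was taken in each library, so that it does not depend on scaling between libraries. For complex I the ratio was 4.94 and 4.42 with ND and 6.10 and 7.57 with HFD. For complex III it was 4.97 and 4.77 with ND and 6.27 and 8.12 with HFD, and for complex IV 4.04 and 3.70 against 4.90 and 6.07. In each of these 3 complexes both HFD libraries were above both ND libraries, and the mean was 1.46, 1.48 and 1.42 times higher. The complex III ratio rests on 1 mitochondrial gene, mt-Cytb, and that of complex IV almost only on mt-Co1. Of 31590 to 40533 mitochondrial counts per library in complex IV, mt-Co2 had 254 to 362 and mt-Co3 38 to 56.

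For complex V the ratio was 0.0283 and 0.0204 with ND and 0.0427 and 0.0478 with HFD, 1.86 times higher on average, but 2.22 times without the first ND library. It rests on mt-Atp6 and mt-Atp8, which together had only 63 to 107 counts per library. Counts of several mitochondrial genes were low beside their neighbours (mt-Co3 38 to 56, mt-Nd3 3 to 9), so the ratios say how the deposited counts are divided and not how many transcripts the cells hold. Mitochondrial ribosomal RNA took 11% and 10.8% of counts with ND and 13.8% and 14.3% with HFD, and it moved in the same direction as these ratios. Its part in them was not tested.

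**Figure D5:**
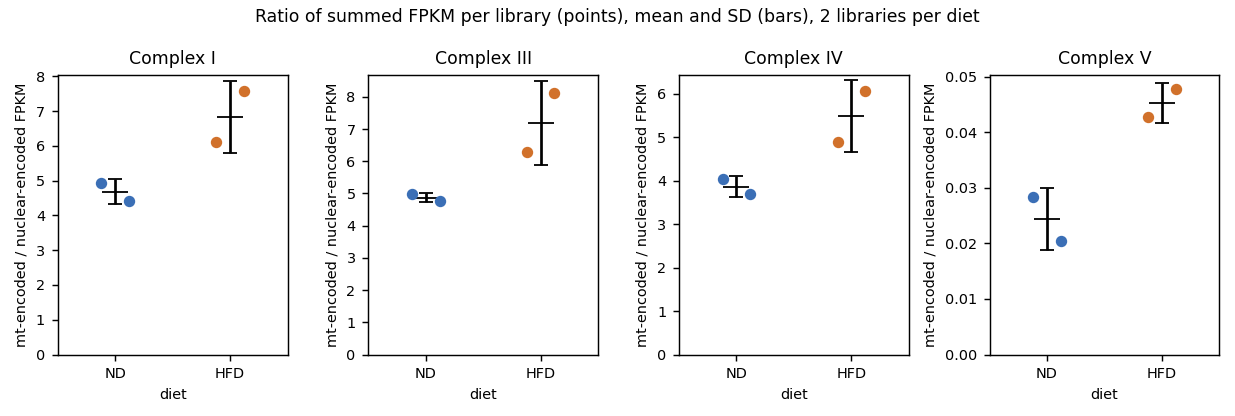
Ratio of the summed FPKM of mitochondrially encoded subunits to that of nuclear-encoded members in complexes I, III, IV and V; points are libraries, horizontal bars the mean and vertical bars the SD of 2 libraries per diet. Both HFD points are above both ND points in each complex, for example 6.10 and 7.57 against 4.94 and 4.42 in complex I.

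Genes that build, feed or run the chain were read from lists beside the members, and edgeR called 0 of them in either direction in 6 lists. Of 48 tested assembly factors 28 had a log2 fold change below 0 (median -0.08), with 1 higher and 1 lower at an unadjusted p under 0.05. Of 21 electron carriers and subunits outside the rule 13 were below 0 (median -0.04, unadjusted 1 higher and 1 lower), the lower one being Cyc1, the cytochrome c1 of complex III, with 51.7 and 46.9 CPM with ND and 38.8 and 34.6 CPM with HFD. Of 17 citrate cycle enzymes 14 were below 0 (median -0.08, unadjusted 0 in both directions). Both HFD libraries were above both ND libraries for 8 assembly factors, 4 carriers and outside subunits, and 1 citrate cycle enzyme. Both were below for 5, 7 and 5, in that order.

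Of 28 genes of protein import and the inner membrane 21 were below 0 (median -0.12, unadjusted 2 lower). Both HFD libraries were lower for 12 of the 28 and higher for 1 (21.9% and 22.7% of all genes). Of 77 mitochondrial ribosomal proteins, which translate the mitochondrial subunits, 56 were below 0 (median -0.19, unadjusted 3 lower: Mrpl46, Mrpl18 and Mrpl11). Here 28 of the 77 had both HFD libraries lower and 1 had both higher. Mrpl46 had 16.9 and 17.6 CPM with ND and 8.33 and 10.9 CPM with HFD. Of 21 regulators of mitochondrial gene expression 12 were below 0 (median -0.10, unadjusted 1 higher and 2 lower), with both HFD libraries lower for 6 and higher for 3. Of these the coactivator Pprc1 had 77.7 and 90.9 CPM with ND and 59.4 and 55.5 CPM with HFD, and the mitochondrial RNA polymerase Polrmt 35.0 and 43.1 against 24.6 and 27.4 CPM. Both were without overlap and neither passed the test (edgeR adjusted p = 0.131 and 0.235). DESeq2 called 1 of the regulators higher and 0 genes of the other 5 lists, and limma called 0 in all 6.

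Beside these, the 16 tested glycolysis genes had a median log2 fold change of 0.0019 with 8 above and 8 below 0, and edgeR called 0 (unadjusted 2 higher and 1 lower; DESeq2 1 higher, limma 0). The 80 tested cytosolic ribosomal proteins had a median of -0.04, close to that of the respiratory chain members, with 0 called by edgeR (unadjusted 4 lower), DESeq2 or limma.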

How the data were processed

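RNA-seq was measured in 4 libraries, grouped by the diet in each sample's labels. One deposited table gave, per gene, raw counts and FPKM made by the authors, and its columns matched the sample descriptions. The deposited FPKM equalled count over exonic size over column total within 0.005. Tools named, per the submitters' processing notes, were HISAT2 2.0.1, cutadapt 1.9.1 and bcl2fastq 2.17.1.14, with no role stated. Not given in the sources used here are the counter, its strand setting, its handling of multiply placed reads, and the build. All 89 member positions equalled GENCODE M21 on GRCm38, where coordinates are read.

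Counts were fitted in R 4.3.3 with edgeR 4.0.16 (quasi-likelihood, TMM, filterByExpr with a minimum count of 10 and total of 15), keeping 14479 genes, with Benjamini-Hochberg adjustment over all of them and no replicate term. TMM factors were 0.965 to 1.04 and the common biological coefficient of variation was 20.3%. SE is the log2 fold change over the root of F. The test was tried on simulated data. Alternatives used DESeq2 1.42.0, limma 3.58.1 on log2(FPKM + 1) or log2(FPKM + 0.1), a replicate block, other scalings and filters, and omission of each library in turn. Summaries used Python 3.11.15.

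Members and lists were chosen with earlier results of these data known. Named members were those called, the extremes of each complex at a mean FPKM of at least 1, the most abundant per complex, core subunits, paralog families, the 5 smallest p-values, and the widest ND spreads; 1 core subunit is not reported here. From other lists, up to 3 genes with the smallest p were named. Ndufs3, Ndufs7, Ndufa12, Atp5h, 6 more ATP synthase subunits, the pseudogenes and genes listed to name a small count were chosen after their values were seen. Promoter sequences are RefSeq's, matched by symbol or synonym, and Ndufa4l2 had no entry. Floors, the upper limits given for paralogs without counts, cover counting error only. Intervals of fold changes come from the edgeR fit, which also takes in the spread among libraries.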

Additional observations from a re-analysis of the deposited data

How the results depend on the processing

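Of the 35 tested members taken by the naming rule, all 35 kept their direction and their side of the threshold under RLE scaling, DESeq2, no filter, a mean FPKM of at least 1, and removal of ribosomal, mitochondrial and small RNAs. So did 13 of the 14 others mentioned (Atp5c1 was 0.0032 at a mean FPKM of at least 1), and 8 of the 14 changed sign without 1 library. Over all genes, calls higher and lower (162 and 33 here) were 88 and 3 with TPM-sum scaling, 408 and 225 without a filter, 274 and 115 with DESeq2, and 2 and 0 with either limma pseudocount (2078 and 2029 genes at an unadjusted p under 0.05). Lower calls were 65 with total-count scaling and 55 at a mean FPKM of at least 1. Leaving out 1 library gave 0 to 81 higher and 0 to 2 lower calls. Members called higher were 0 with both limma pseudocounts and 0 to 1 without 1 library.

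The labels give both diets replicate numbers 1 and 2 without saying that they pair libraries. Deviations of same-numbered libraries correlated at -0.0127. The replicate block gave 308 higher and 111 lower calls over all genes, kept Ndufa4l2 (1.93) as the 1 member called, and called 1 regulator of mitochondrial gene expression and 1 glycolysis gene higher.

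Scaling moved the median of all genes by less than 0.1, to -0.07 (TPM sum), -0.08 (total counts), -0.06 (limma) and -0.08 (limma, 0.1). In that order the complex I median was -0.12, -0.14, -0.12 and -0.14, and complex III -0.023, -0.037, -0.029 and -0.030. Complex II was -0.24 with total counts and -0.25 with limma at 0.1. Without 1 library the medians ranged from -0.068 to 0.0049 for I, -0.26 to 0.023 for II, -0.053 to 0.099 for III and -0.075 to 0.019 for IV, which was 0.020 with Ndufa4 and Ndufa4l2 counted in it. The complex I median was 0.0015 over members with a mean FPKM of at least 10. In the same order of scalings, log2 fold changes above 0 here became -0.0011, -0.014, -0.017 and -0.018 for Cox5b, -0.0023, -0.010, -0.016 and -0.016 for Cox6b1. They became -0.028, -0.053, -0.054 and -0.056 for Cox7a2, -0.022, -0.030, -0.025 and -0.025 for Ndufv1 and -0.061, -0.064, -0.054 and -0.056 for Uqcrc2. Atp5g3 was -0.0040 and -0.0045 in the first 2, and Ndufb10 -0.0061, -0.024 and -0.025 in the last 3. The cause was not tested.

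Without 1 library, log2 fold changes near 0 took both signs, with ranges of -0.072 to 0.26 (Atp5g3), -0.032 to 0.17 (Cox5b), -0.075 to 0.21 (Cox6b1), -0.097 to 0.15 (Cox7a2), -0.12 to 0.055 (Cox7b), -0.18 to 0.54 (Ndufa4), -0.18 to 0.30 (Ndufb10) and -0.28 to 0.83 (Ndufb3). Further ranges were -0.23 to 0.014 (Ndufs1), -0.044 to 0.17 (Ndufv1), -0.53 to 0.057 (Sdhd), -0.15 to 0.086 (Uqcrc1), -0.12 to 0.19 (Uqcrc2) and -0.14 to 0.014 (Uqcrfs1).

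The complex V ratio was 1.60 to 2.22 times without 1 library, and the share of Atp5g1 by raw counts -2.52 percentage points. Mitochondrially encoded genes called higher (3 here) were 0 with TPM sums, 1 with total counts, 6 without a filter, 5 at a mean FPKM of at least 1, 5 with DESeq2, 0 with either limma, and 0 to 1 without 1 library. Regulators called higher were 1 without a filter and 1 with DESeq2, and lower 1 without a filter. Glycolysis genes called higher were 2 without a filter, 1 at a mean FPKM of at least 1 and 1 with DESeq2. The 5 tested members with under 50 counts in every library (Ndufb4, Ndufb4c, Cox6b2, Cox6c2 and Atp5g2) had 95% intervals that reached past 2-fold.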

Other observations

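Ndufa4l2 is known to respond to low oxygen, and other genes tied to hypoxia were read as a list. It was chosen after the values of Ndufa4l2 were seen, so the list carries no test and the p-values of its genes are descriptive only. Of 15 such genes with enough counts 13 had a log2 fold change above 0, with a median of 0.16 (all genes 0.0018, with 49.9% below 0), but 0 were called by edgeR (2 higher at an unadjusted p under 0.05). Egln3, an oxygen-sensing prolyl hydroxylase, had 8.64 and 7.01 CPM with the normal diet and 26.4 and 15.7 CPM with the high-fat diet. Epas1, which encodes a hypoxia-inducible factor subunit, had 11.4 and 16.3 CPM against 31.3 and 27.6 CPM. Both had higher values in both high-fat diet libraries and missed the threshold (edgeR adjusted p = 0.061 for Egln3 and 0.066 for Epas1). Vegfa had 19.6 and 15.7 CPM against 20.1 and 18.5 CPM, and Bnip3 6.60 and 12.7 CPM against 11.8 and 7.89 CPM, with overlap between the diets in both. The part of low oxygen in the rise of Ndufa4l2 was not tested.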
